A study of Mus musculus with 3 samples.

Results

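The genes described are 9 that serve pacemaking and conduction in the heart: the pacemaker channel genes Hcn2, Hcn3 and Hcn4, the acetylcholine-gated potassium channel genes Kcnj3 and Kcnj5, the connexin genes Gja1, Gja5 and Gjc1, and the homeobox gene Shox2. From a list of regions bound by Isl1, every region (peak) that the list assigned to 1 of these gene symbols was kept after identical repeated lines had been dropped. This gave 19 of 14082 distinct peaks, spread over 8 of the 9 genes, whereas Gja5 had no assigned peak. The list came from ChIP-Seq, an assay that fixes proteins to DNA, recovers the fragments held by 1 protein with an antibody and sequences them. The antibody was directed against Isl1, a transcription factor with LIM domains and a homeodomain. There were 2 Isl1 ChIP samples and 1 input sample of chromatin that was not pulled down, all from cardiac progenitor cells (CPCs) collected at day 5 of directed differentiation. The cells were derived from the mouse embryonic stem cell line E14 Tg(Nkx2–5-EmGFP), whose transgene puts a green fluorescent protein under control of the early cardiac gene Nkx2-5. All 3 samples shared this line and the same course of BMP4, Activin A, VEGF, bFGF and FGF10, so no condition was compared. The list holds the areas common to both ChIP samples and gives positions without heights or read numbers, so no replicate error and no depth can be attached to any value below. Expression was not part of the list, and the identity of the cells could not be checked against marker genes.

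Pacemaker cells of the sinoatrial node depolarize spontaneously, in part through the funny current, an inward current that hyperpolarization and cyclic AMP switch on and that HCN channels carry. Vagal slowing of the heart acts through a potassium current (IKACh) that G protein beta-gamma subunits open after acetylcholine binds its receptor, and the channel is built from the products of Kcnj3 and Kcnj5. Gap junctions then pass the impulse on: Gjc1 encodes the low-conductance connexin of nodal tissue, Gja5 that of the atria and fast conduction system, and Gja1 the main connexin of working ventricular muscle. Shox2 is a homeodomain factor needed for formation of the sinoatrial node, where Isl1 is itself expressed.

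The peaks fell into a group at promoters and a group far from them. A peak lay within 1 kb of the transcription start site (TSS) at Hcn2, Hcn3, Hcn4, Gjc1 and Shox2, that is at 5 of the 9 genes, against 23.2% of all 21900 protein-coding genes. An assigned peak at any distance was present for 37.5% of protein-coding genes and at least 2 peaks for 10.6%, against 8 and 5 of the 9. No member peak lay between 1 and 10 kb, and the other 14 were more than 10 kb from the TSS, 10 of them more than 100 kb away. Of the 19 peaks, 5 were thus within 1 kb, against 38.5% of all listed peaks. Because the members were chosen with results of these data known, these counts are given without a test.

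**Figure D1:**
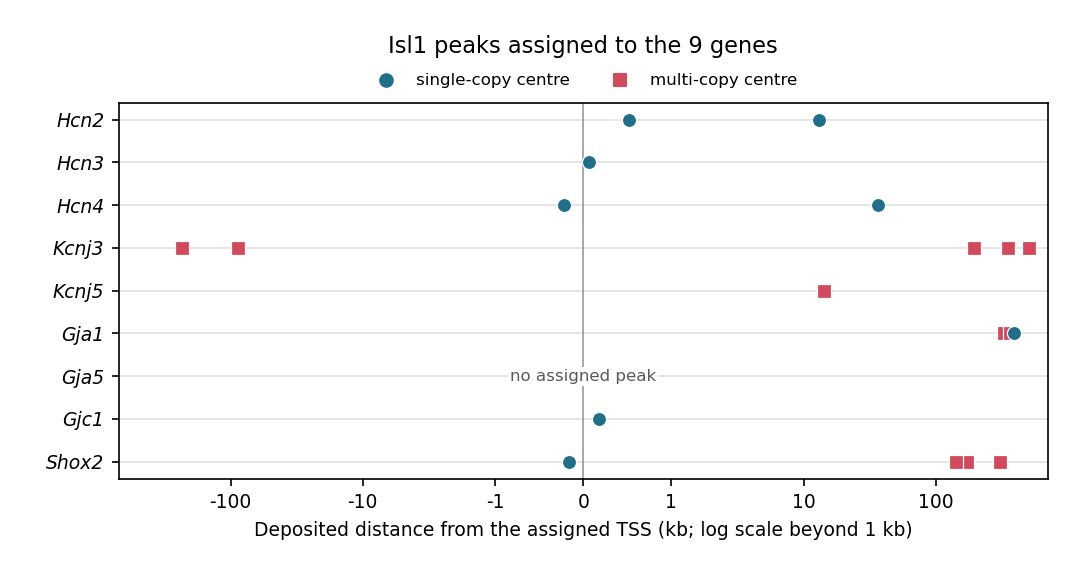
Each point is 1 of the 19 peaks, placed by its deposited distance from the TSS of the gene on its row (kb, log scale beyond 1 kb, negative values upstream). Circles are peaks whose centre is single-copy sequence and squares those whose centre is multi-copy; the 5 peaks within 1 kb are all circles, and Gja5 has no point.

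The other feature that set the groups apart was how often the bound sequence recurs in the genome. Copy number was taken as the median count, on both strands of the genome, of the 31-base words in the central 200 bp of a peak, and a median of at least 2 was called multi-copy. By this measure 11 of the 19 member peaks were multi-copy, against 46.5% of all peaks. None of the 5 promoter peaks was multi-copy, whereas 11 of the 14 peaks beyond 10 kb were. Across the whole list, the shares were 2.62% within 1 kb and 81.2% beyond 10 kb, so the members followed the list in this respect. Single-copy peaks remained for Hcn2, Hcn3, Hcn4, Gja1, Gjc1 and Shox2, and none for Kcnj3 or Kcnj5. Reads that fit several positions equally well can be placed at any of them, and whether those under the multi-copy peaks did so depends on their length. The part this played in the peaks was not tested.

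Each of the 3 HCN genes had a peak at the start of the gene. The Hcn2 promoter peak (chr10:79178956-79180847 in mm9) was 1891 bp wide, with its midpoint 522 bp downstream of the TSS in the first coding exon. Hcn3, on the minus strand, had 1 peak (chr3:88963501-88964520) of 1019 bp whose midpoint lay 69 bp downstream of the TSS, in the 5′ untranslated region. At Hcn4, the HCN gene most strongly expressed in the sinoatrial node, the peak (chr9:58669927-58672277) was 2350 bp wide and its midpoint lay 217 bp upstream of the assigned TSS. The Hcn4 peak was the widest of the 19 and exceeded 98.7% of all listed peaks in width, and the Hcn2 peak exceeded 95.8%.

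**Figure D2:**
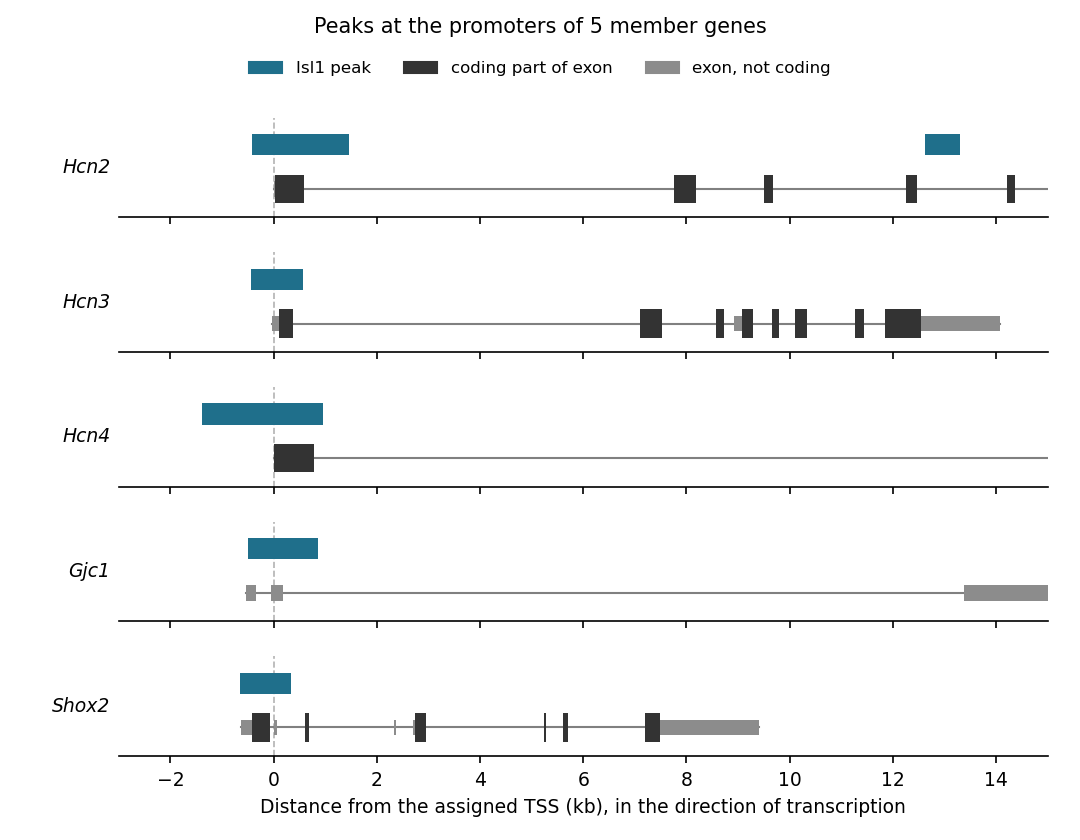
Blue bars are Isl1 peaks drawn to scale over the exons of the 5 genes with a promoter peak (distance in kb from the assigned TSS, in the direction of transcription, coding parts black and other exon parts grey). All 5 peaks span the start of the gene, and the peaks of Hcn2 and Hcn4 are the widest at 1891 and 2350 bp; the second Hcn4 peak, 36489 bp away, lies outside the window.

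Part of the sequence under these peaks was coding sequence that the genes share. The promoter peaks of Hcn2 and Hcn3 each contained the end of the first coding exon, whose last 120 coding bases are shown with the bases identical in both genes in capitals, since this stretch is what aligned between the peaks.
Hcn2 exon 1 end (chr10:79179845-79179964, plus strand): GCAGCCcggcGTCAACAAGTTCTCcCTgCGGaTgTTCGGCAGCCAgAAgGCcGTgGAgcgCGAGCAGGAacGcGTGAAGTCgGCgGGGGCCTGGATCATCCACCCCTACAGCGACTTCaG
Hcn3 exon 1 end (chr3:88963707-88963826, minus strand): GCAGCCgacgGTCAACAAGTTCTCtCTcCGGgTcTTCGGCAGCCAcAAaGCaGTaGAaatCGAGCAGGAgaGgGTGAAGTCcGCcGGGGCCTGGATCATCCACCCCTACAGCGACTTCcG
Of the 120 positions, 99 were identical in both genes (82.5%). The centres of both peaks were single-copy, with a median 31-base word count of 1 at each. That count does not bear on the likeness. The Hcn3 stretch lies outside the central 200 bp that was counted, and at 82.5% identity few 31-base words of the Hcn2 stretch recur in Hcn3. The aligned stretch made up 7.56% of the Hcn2 peak and 14.0% of the Hcn3 peak, so most of each peak was sequence of its own. The Hcn4 promoter peak also aligned with that of Hcn2, over 153 bp at 83.7% identity, and with that of Hcn3, over 144 bp at 78.5%.

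Upstream of the starts, the HCN peaks were rich in G and C. The 200 bases before the RefSeq start of Hcn2 and Hcn4, and before the annotated first exon of Hcn3, are shown with the GC-box string GGGCGG or its reverse complement in capitals, since they are the promoter sequence inside the peaks.
Hcn2 upstream (chr10:79179179-79179378, plus strand): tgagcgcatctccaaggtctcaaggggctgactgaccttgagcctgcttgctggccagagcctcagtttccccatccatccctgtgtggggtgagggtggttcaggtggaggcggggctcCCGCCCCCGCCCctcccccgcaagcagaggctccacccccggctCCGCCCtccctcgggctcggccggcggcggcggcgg
Hcn3 upstream (chr3:88964119-88964318, minus strand): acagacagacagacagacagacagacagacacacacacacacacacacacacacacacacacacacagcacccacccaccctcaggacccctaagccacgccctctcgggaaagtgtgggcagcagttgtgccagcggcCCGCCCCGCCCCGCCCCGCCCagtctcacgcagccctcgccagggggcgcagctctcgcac
Hcn4 upstream (chr9:58670556-58670755, plus strand): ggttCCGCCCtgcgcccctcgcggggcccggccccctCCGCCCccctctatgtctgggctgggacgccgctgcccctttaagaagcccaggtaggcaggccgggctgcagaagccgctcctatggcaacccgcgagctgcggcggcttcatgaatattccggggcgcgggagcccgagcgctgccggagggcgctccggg
GC content of these stretches was 72.0% at Hcn2, 66.0% at Hcn3 and 74.0% at Hcn4, and each held the string. Over the central 200 bp, the string was in 6 of the 19 member peaks and in 42.0% of all peaks. In windows of 200 bp placed 2 kb before each midpoint along the chromosome, it was in 3.32%. RefSeq promoter windows (250 bases before to 50 after a start, from GRCm38.p6, matched by sequence to mm9) were found for 7 of the 9 genes, and those of Hcn2 and Hcn4 lay with all 300 bases inside the peak. The GC-box string was in 35.7% of all RefSeq promoter windows. Besides Hcn2, Hcn4 and Shox2, the windows of Kcnj3, Kcnj5 and Gja5 held it, although these genes had no peak within 1 kb. The Gja1 window lacked it. The RefSeq start of Hcn4 matched position 58670756, upstream of the TSS at position 58671319 that the deposited distance implies, and the peak covered both.

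Hcn2 and Hcn4 each had a second, single-copy peak inside the gene. The second Hcn2 peak (chr10:79192008-79192675, 667 bp) lay in an intron 12962 bp downstream of the TSS, and the closest protein-coding start in the GENCODE annotation was that of Polrmt, the mitochondrial RNA polymerase gene, 9778 bp away. The second Hcn4 peak (chr9:58707117-58708500, 1383 bp) lay in the coding part of the last exon, 36489 bp downstream. These were the only single-copy peaks of the 19 inside a gene but beyond 10 kb of its start. Their central 200 bases are shown, with the GATA-type string AGATAA in capitals at Hcn2 and the Meis-type string TGACAG, on the minus strand, in capitals at Hcn4.
Hcn2 intron (chr10:79192242-79192441, plus strand): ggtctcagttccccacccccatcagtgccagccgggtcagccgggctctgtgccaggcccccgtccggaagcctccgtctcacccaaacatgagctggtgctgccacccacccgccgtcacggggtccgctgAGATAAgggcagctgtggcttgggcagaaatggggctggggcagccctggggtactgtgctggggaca
Hcn4 last exon (chr9:58707709-58707908, plus strand): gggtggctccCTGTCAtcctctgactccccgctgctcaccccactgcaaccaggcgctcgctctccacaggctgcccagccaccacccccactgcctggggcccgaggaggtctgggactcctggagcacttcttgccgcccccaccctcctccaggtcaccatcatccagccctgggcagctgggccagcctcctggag
The GATA-type strings, which are AGATAA and its variants with a final G, an initial T or both, were present in the centres of 2 of the 19 member peaks and in 4.22% of all centres, and the Meis-type string in 3 of 19 and 14.9%. In windows of 200 bp placed 2 kb before each midpoint along the chromosome, the shares were 35.2% for the GATA-type strings and 12.5% for the Meis-type string. A match of a few letters is a description of the sequence and does not show that the factor was bound. GC content was 68.0% at the Hcn2 intron and 69.5% at the Hcn4 exon, but CpG dinucleotides were few, at 9 and 5 in 200 bases, against 20 to 36 in the 5 promoter peaks.

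The genes of the acetylcholine-gated channel differed from the HCN genes. Kcnj3 had 5 peaks, the most of the 9 genes and a number reached by 2.65% of the gene names in the list, but none at its promoter. They lay 232337 and 88550 bp upstream and 192963, 353536 and 505654 bp downstream of the TSS, all intergenic. The stretch nearer to the Kcnj3 start than to the neighbouring protein-coding starts, those of Galnt13 and Nr4a2, was 1340 kb long, which gave 3.72 peaks per Mb against 5.3 per Mb over the genome. For comparison, Hcn2, with 2 peaks, had 94.7 peaks per Mb over a stretch of 21.1 kb, and Hcn3, with 1 peak, had 69.8 over 14.3 kb. Over stretches this short, 1 peak is enough for a rate far above that of the genome. Kcnj5 had 1 peak (chr9:32137332-32137846, 514 bp) in an intron, 14233 bp downstream of the TSS.

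All 6 peaks of the channel genes were multi-copy. The median 31-base word of the Kcnj5 centre occurred 26598 times in the genome, the highest value among the members, and the Kcnj3 centres ranged from 25.5 to 2678 occurrences. With 75-base words the Kcnj5 centre still reached 16207.5 occurrences and Kcnj3 peak 5 reached 799.5, whereas Kcnj3 peaks 1 and 4 fell to 1. Gja1 peak 2, which was at 2 with the shorter words, and Shox2 peak 2 also fell to 1, so that 7 member peaks were multi-copy by the longer words. Peaks are numbered here by position along the chromosome. Kcnj3 peaks 1, 3 and 5 were alike in sequence: peak 1 aligned with peak 3 over 87.2% of its bases and with peak 5 over 76.5%. Around a TAAT, the core of many homeodomain binding sites, they read as follows, with TAAT in capitals. The stretches of peaks 1 and 3 come from the central 200 bp, whereas that of peak 5, chosen as the most like peak 1, lies outside its central 200 bp, which holds a TAAT of its own.
Kcnj3 peak 1 (chr2:55056008-55056107, plus strand): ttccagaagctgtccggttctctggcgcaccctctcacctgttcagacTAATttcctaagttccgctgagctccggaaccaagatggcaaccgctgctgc
Kcnj3 peak 3 (chr2:55481364-55481463, plus strand): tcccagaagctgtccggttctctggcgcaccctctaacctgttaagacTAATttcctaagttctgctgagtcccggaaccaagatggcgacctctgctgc
Kcnj3 peak 5 (chr2:55793774-55793873, minus strand): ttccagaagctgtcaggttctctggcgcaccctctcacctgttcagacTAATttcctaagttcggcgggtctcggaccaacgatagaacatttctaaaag
TAAT was present in the centres of 4 of the 19 member peaks, all 4 assigned to Kcnj3, and in 19.4% of all centres. In windows of 200 bp placed 2 kb before each midpoint along the chromosome, it was present in 72.0%. RefSeq promoter windows, which are longer, held it in 58.0%. The listed centres thus held TAAT less often than the sequence near them. The 15-base word AGACTAATTTCCTAA, taken from Kcnj3 peak 1 after its sequence had been seen, was present in the centres of Kcnj3 peaks 1, 3 and 5 and of 1325 listed peaks in all. That is 48.5% of the 2732 listed peak centres with a TAAT, and 1322 of the 1325 were multi-copy. None of the 8 single-copy member centres held a TAAT, against 9.67% of all single-copy centres. The longer LIM-homeodomain type strings CTAATGG and CTAATTG were in 0 of 19 member centres and in 0.412% of all centres. Likewise, the Nkx2-5 type strings CAAGTG and TAAGTG were in 0 of 19 and 3.83%, and the T-box type strings GGTGTGA and AGGTGTG in 0 of 19 and 2.06%. Such an absence says only that these letters were not in the window. In the windows 2 kb before each midpoint, the LIM-homeodomain, Nkx2-5 and T-box type strings were in 2.8%, 17.7% and 5.57%.

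The connexin genes differed among themselves. Gjc1 had a promoter peak (chr11:102679609-102680969, 1360 bp) with its midpoint 184 bp downstream of the TSS, and its centre had the highest GC content of the 19, at 83.0%, with 36 CpG dinucleotides in 200 bases. The 200 bases before the start of the shorter GENCODE transcripts show this, with the GC-box string in capitals.
Gjc1 upstream (chr11:102680525-102680724, minus strand): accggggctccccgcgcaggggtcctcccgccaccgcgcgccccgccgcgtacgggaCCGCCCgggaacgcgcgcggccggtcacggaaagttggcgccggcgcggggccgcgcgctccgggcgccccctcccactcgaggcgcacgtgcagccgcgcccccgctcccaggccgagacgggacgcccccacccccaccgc
Gja1 had 3 peaks and Gja5 none. The Gja1 peaks lay 330140, 365100 and 390614 bp downstream of the TSS, in intergenic sequence, and under the GENCODE annotation all 3 were nearer to the start of another gene, Gm9956, at distances from 2734 to 37694 bp. A listed peak assigned to another gene, Tbc1d32, lay closer to the Gja1 start, at 89783 bp, and was multi-copy. For Gja5, the listed peak nearest to the RefSeq start lay 123757 bp away, was assigned to Acp6 and was multi-copy. The protein-coding start of Acp6, a neighbouring gene, was 126.0 kb away, and no listed peak of any gene lay within 100 kb of the Gja5 start. Of all 20 connexin genes on the list used here, 5 had an assigned peak (25.0%, 95% Wilson interval 11.2% to 46.9%), against 37.5% of all protein-coding genes. This list was also chosen with results of these data known, so the interval is descriptive and no difference is claimed. The 3 others were Gjb2, with a peak 190 bp from its TSS, Gjd3, with a peak 505 bp from it, and Gjb5, with a peak 279739 bp upstream.

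Shox2 had 4 peaks, of which 1 was at the promoter. The promoter peak (chr3:66784730-66785717, 987 bp) had its midpoint 160 bp upstream of the TSS that the deposited distance implies, and in the GENCODE annotation this point lay in a coding exon of a longer Shox2 transcript. The start of Rsrc1, transcribed in the opposite direction, was 0.249 kb from the same TSS, so that the peak covered the starts of both genes. Coding bases from the centre of the peak are shown.
Shox2 coding (chr3:66785133-66785240, minus strand): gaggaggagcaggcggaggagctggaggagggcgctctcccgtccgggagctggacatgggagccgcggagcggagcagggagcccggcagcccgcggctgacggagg
Of the RefSeq promoter window of Shox2, whose start lies at position 66785693, 74 of 300 bases were inside the peak. The other 3 Shox2 peaks lay 308121, 171315 and 142606 bp downstream of a second annotated start, in the intergenic stretch toward Veph1, and all 3 were multi-copy. Peaks 1 and 3 aligned over 93.8% of peak 1, and the closest 100 bases differed at 1 position, in capitals.
Shox2 peak 1 (chr3:66474363-66474462, plus strand): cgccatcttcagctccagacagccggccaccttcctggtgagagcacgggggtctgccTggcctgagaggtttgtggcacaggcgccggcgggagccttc
Shox2 peak 3 (chr3:66639843-66639942, plus strand): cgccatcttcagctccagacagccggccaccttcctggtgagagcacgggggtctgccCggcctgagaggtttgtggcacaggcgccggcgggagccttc

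The same was seen between genes. Kcnj3 peak 2 and Gja1 peak 1, on different chromosomes, aligned over 89.8% of the Kcnj3 peak, and 100 bases from within the aligned part were identical.
Kcnj3 peak 2 (chr2:55199712-55199811, plus strand): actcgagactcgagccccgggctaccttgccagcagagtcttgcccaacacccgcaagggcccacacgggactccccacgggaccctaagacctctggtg
Gja1 peak 1 (chr10:56426831-56426930, minus strand): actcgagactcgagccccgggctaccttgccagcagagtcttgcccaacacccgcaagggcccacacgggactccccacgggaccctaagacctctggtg
Such sequence was common in the list. Counting a listed peak as similar when at least 50% of the member peak aligned with it at 80% identity or more, Kcnj3 peaks 1, 3 and 5 belonged to a group of 2078 listed peaks (14.8%). Kcnj3 peak 2 and Gja1 peak 1 belonged to a group of 964 (6.85%), and Shox2 peaks 1 and 3 to a group of 541 (3.84%). Together, these 7 member peaks were similar to or among 3577 listed peaks, or 25.4% of the list. Within 6 of the 7, at least 50% of the bases matched when the peak was compared with itself shifted by 206 to 214 bases, the mark of a tandem repeat, and in Shox2 peak 3 the best match was 40.2% at a shift of 204 bases. Of all listed peaks, 36.5% reached 50% at some shift up to 300 bases, and of those within 1 kb of a TSS 0.905% did. Of listed peaks beyond 10 kb 64.1% did, and of multi-copy peaks 72.6%. Among the 14 member peaks beyond 10 kb, 9 did (64.3%), so the distal members were like their class.

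**Figure D3:**
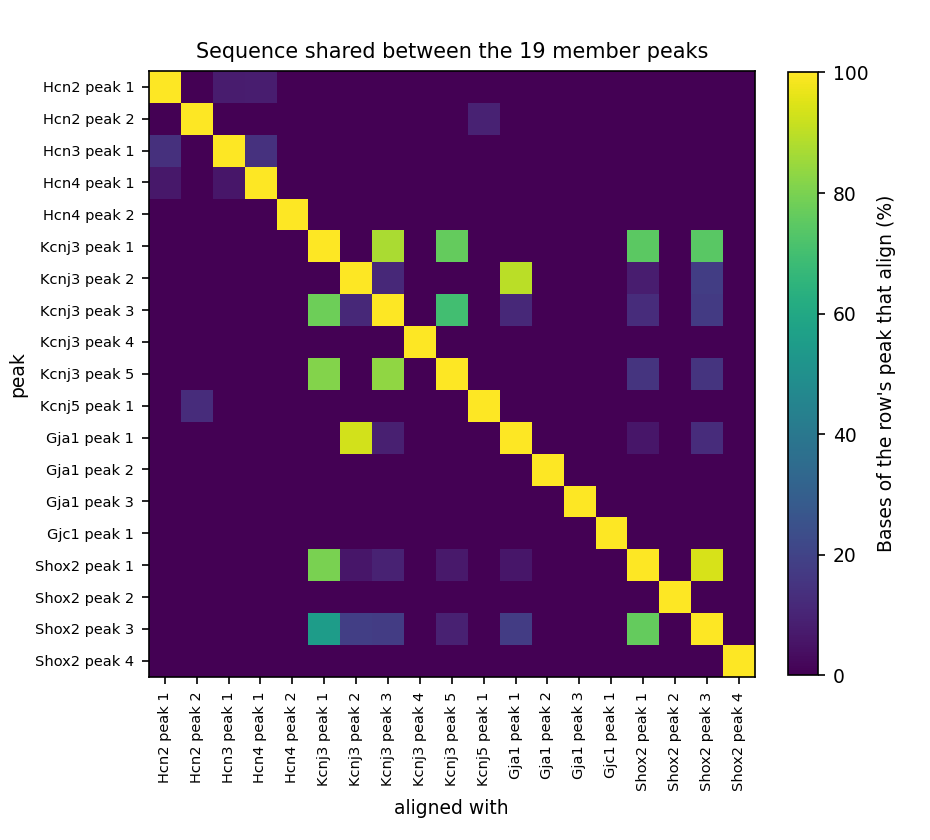
The colour gives the percentage of bases of the peak on each row that aligned with the peak on each column (blastn). Blocks off the diagonal join Kcnj3 peaks 1, 3 and 5, Kcnj3 peak 2 with Gja1 peak 1 (89.8%), and Shox2 peaks 1 and 3 (93.8%), and Kcnj3 peak 1 also aligns with Shox2 peaks 1 and 3 (74.7% and 74.6%), at a lower mean identity of 66.6% and 70.5%, whereas the HCN promoter peaks share only short stretches.

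Of the remaining distal peaks, 4 held short repeats. The 60 bases with the most regular repeat in each are shown because they make up what these peaks have in common.
Kcnj5 peak 1 (chr9:32137487-32137546, plus strand): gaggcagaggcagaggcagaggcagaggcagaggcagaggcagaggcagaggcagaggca
Gja1 peak 2 (chr10:56462227-56462286, plus strand): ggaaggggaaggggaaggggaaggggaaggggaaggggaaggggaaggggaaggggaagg
Gja1 peak 3 (chr10:56487528-56487587, plus strand): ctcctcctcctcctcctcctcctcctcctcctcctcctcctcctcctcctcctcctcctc
Shox2 peak 2 (chr3:66611297-66611356, plus strand): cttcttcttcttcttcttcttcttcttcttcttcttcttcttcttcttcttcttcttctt
At a shift of 6 bases, 64.6% of the bases matched in the Kcnj5 peak, 64.8% in Gja1 peak 2, 63.8% in Shox2 peak 2 and 48.4% in Gja1 peak 3. Gja1 peak 3 was single-copy at its centre, so of the 3 single-copy distal peaks it was the one with a short repeat. Kcnj3 peak 4, whose centre had a median of 85.5 copies, showed no such regularity (best match 31.1%), and 47 listed peaks resembled it.

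Width and GC content followed the distance class. The promoter peaks of the members had a median width of 1360 bp and a median GC content of the central 200 bp of 78.5%, against 1050 bp and 74.0% for all peaks within 1 kb. The distal member peaks had medians of 1073 bp and 63.0%, against 882 bp and 63.5% for all peaks beyond 10 kb. At 2 kb to either side of the promoter peaks, the GC content was lower, between 34.5% and 59.5%. The lowest GC content at a centre was 41.5%, in the CTT repeat of Shox2 peak 2.

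**Figure D4:**
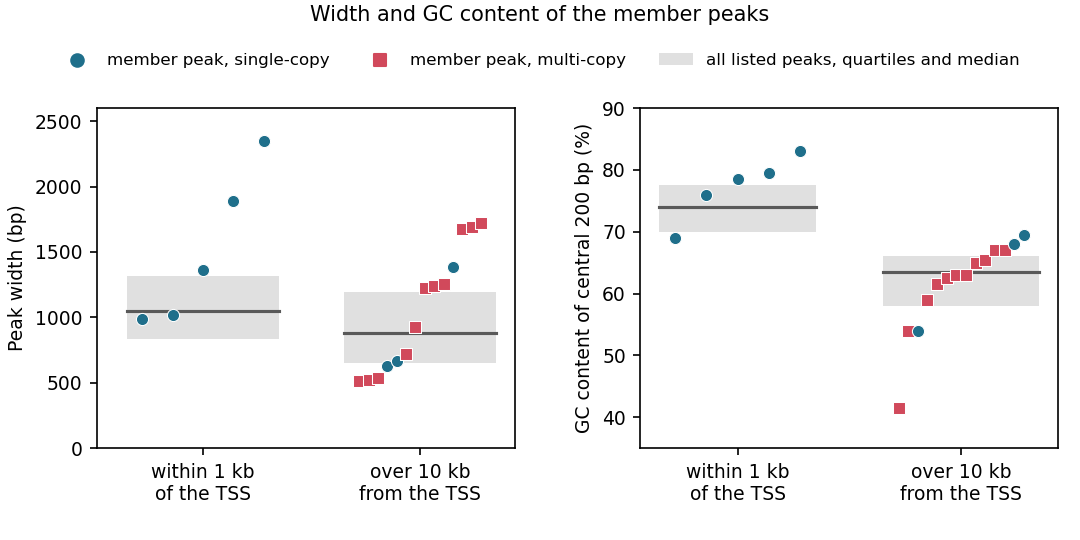
Points are the member peaks within 1 kb and beyond 10 kb of the TSS (circles single-copy, squares multi-copy), beside the middle 50% (grey box) and median (line) of all listed peaks of that class, for peak width in bp and GC content of the central 200 bp in percent. The peaks of Hcn2 and Hcn4 stand highest in width at 1891 and 2350 bp.

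Promoter GC content was set beside the presence of a promoter peak over all genes. Among protein-coding genes with a RefSeq promoter window, a peak within 1 kb was listed for 2.59% of those whose window had a GC content under 50%, for 11.1% at 50% to 60%, for 33.4% at 60% to 70% and for 70.4% at 70% or more. The windows of Hcn2 (72.3%) and Hcn4 (71.7%) were in the last class and had a peak. Those of Kcnj3 (57.7%), Kcnj5 (58.3%), Gja5 (55.7%) and Gja1 (47.7%) were in the lower classes and had none, whereas Shox2, with a window of 53.3%, had one. Only 74 of the 300 bases of that Shox2 window lay inside the peak, which was assigned to another start and had a GC content of 78.5% at its centre. These shares are a description across genes, and the part that base composition plays in them was not tested.

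Other genes of pacemaking and conduction were counted in the same way. Of 62 such genes outside the 9, 39 had an assigned peak (62.9%, 95% Wilson interval 50.5% to 73.8%, against 37.5% of all protein-coding genes) and 29 had one within 1 kb of the TSS. These lists were written with results of these data known, so no test of them is given. By role, 21 of 29 other ion channel, exchanger and calcium-handling genes had a peak, among them Cacna1d, encoding an L-type calcium channel of pacemaker cells, at 155 bp, Cacna1g, encoding a T-type channel, at 282 bp, and Ryr2, the calcium release channel, at 539 bp from the TSS. Of 16 other genes of the IKACh pathway and its receptors, 10 had a peak. These included Gnai2 and Gnao1, encoding inhibitory G protein subunits, at 27 and 11 bp, and Adrb1, the cardiac beta-adrenergic receptor, at 436 bp. The muscarinic receptor gene Chrm2 and the adenosine receptor gene Adora1 had none. The other GIRK subunit genes also lacked a peak within 1 kb: the nearest for Kcnj6 was 90774 bp away and multi-copy, and that for Kcnj9 was 3104 bp away and single-copy. Of 17 sinoatrial and conduction factors beside Shox2, 8 had a peak (47.1%, interval 26.2% to 69.0%), including Tbx3 at 364 bp and Tbx18 at 981 bp, both T-box factors of the sinoatrial node, and Nkx2-5 at 346 bp. Tbx5 had none. Isl1 itself had 3 assigned peaks, 2 of them multi-copy, and the nearest, 37260 bp from the TSS, was multi-copy.

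**Figure D5:**
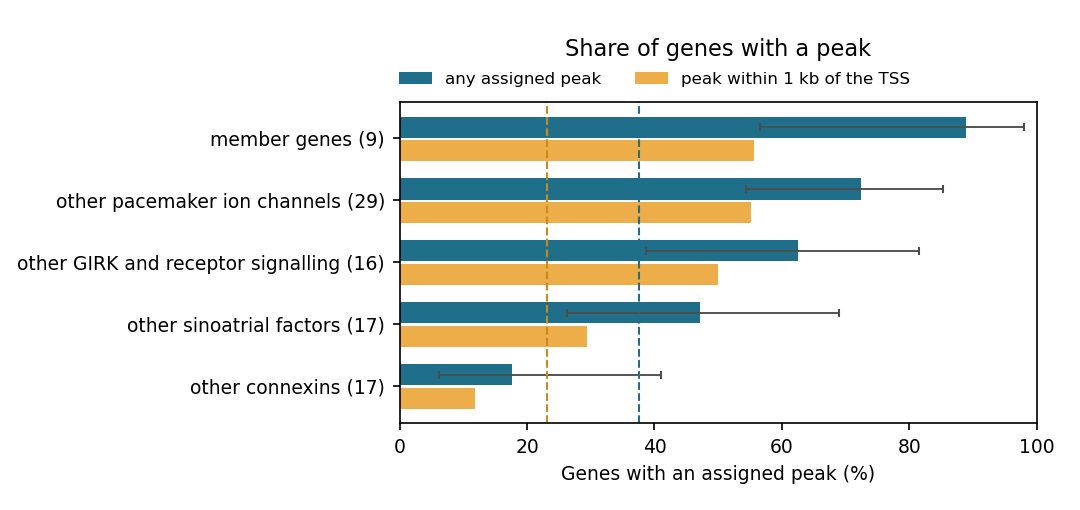
Bars give the percentage of genes in each list (number of genes in brackets) with any assigned peak (blue) or with a peak within 1 kb of the TSS (yellow); whiskers are 95% Wilson intervals of the blue bars. Dashed lines mark the shares of all protein-coding genes, 37.5% and 23.2%, which the other connexins do not reach (17.6% and 11.8%).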

How the data were processed

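ChIP-Seq peaks from 2 Isl1 ChIP samples and 1 input of day 5 CPCs were analysed. Per the study's methods, the authors aligned reads to mm9 with bowtie2, removed duplicates with Picard 1.136, called peaks with MACS14 (no model), removed blacklisted regions, kept areas common to both replicates with bedtools 2.15, and assigned each peak to the closest TSS with HOMER. The deposited values are positions and signed distances in bp. They hold no score, so depth and replicate error are unknown and no p-value was computed. Intervals are 95% Wilson intervals and cover sampling error only.

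Identical lines (83 of 14165) were counted once. Sequence was read from NCBI m37, which is mm9, and 0 peaks ran past a chromosome end. Gene structure came from GENCODE M1, and protein-coding genes from a RefSeq table of GRCm38.p6 (by symbol for 9031, by accession for 261 and by synonym for 13 of 9313 names, with 8 unmatched). List starts were read as counting from 0, which leaves them uncertain by 1 bp. Strings were sought on both strands of the central 200 bp. Peaks were aligned with blastn 2.17.0 (e-value 1e-10, low-complexity filter on). Word counting and the shift measure were tested on simulated sequences. All 9 members were named with every peak, and other listed genes by the peak nearest their TSS, with a selection printed; some are not reported here. The members and lists were chosen with earlier results of these data known, and the shift measure, the GC classes of promoter windows and the 15-base word were chosen after seeing the sequences. Alternatives were a minimum width of 500 bp, single-copy peaks, repeated lines as deposited, GENCODE assignment, other distances, at least 2 peaks per gene, 75-base words, and other windows.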

Additional observations from a re-analysis of the deposited data

How the results depend on the processing

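Of 43 recomputed values, 31 stayed within 1.5 times the reported count or within 1 SD over the member peaks, and 12 moved further. With single-copy peaks alone, the member peaks numbered 8 and those with a TAAT at the centre 0. Within 10 kb of the TSS, there were 5 member peaks, 5 members with a peak and 3 connexins with a peak. Requiring at least 2 peaks left 5 members, 18 other pacemaker and conduction genes, 1 connexin and 2324 protein-coding genes. With 75-base words, 7 member peaks were multi-copy. TAAT was found in 2 member peaks in the central 100 bp. Over whole peaks it was found in 16 of the 19 member peaks, against 73.8% of all listed peaks. The 5 promoter peaks were found under each of the 5 alternatives tried for them. Under GENCODE assignment, the members with a peak numbered 7, since the Gja1 peaks went to another gene.

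No paired analysis was possible because the ChIP replicates share 1 list and no result comes from a test, and for the same reason no replicate was left out. Without read numbers, depth sets no limit that can be stated for a gene with no listed peak, such as Gja5.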
